A study of Homo sapiens and Mus musculus with 29 samples.

Results

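EHF, ELF1, ELF3, SPDEF, KLF3, KLF4 and KLF5 are transcription factors of the ETS and KLF families that are expressed in epithelia, and their mRNA levels were followed through HPAF-II xenografts and KPC cell lines. The 7 genes were taken by symbol from 58719 gene identifiers in the HPAF-II table, and their 7 mouse orthologs from 54446 identifiers in the KPC table. They were selected with results of these data known, and the difference in mouse Ehf between KPC libraries was one of the values that chose them. The KPC values are therefore a description without a test.

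ETS factors bind DNA through a winged helix domain that recognizes a GGAA core, and the epithelial members EHF, ELF3 and SPDEF are known from glandular and mucosal epithelia. KLF factors bind CACCC and other GC-rich boxes through zinc fingers near the C terminus. KLF5 is known as an activator in proliferating epithelial cells, KLF4 as a regulator of differentiation and pluripotency, and KLF3 as a repressor that recruits CtBP proteins. SPDEF is a regulator of goblet cell secretion, and ELF1 is expressed broadly, including in blood cells.

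HPAF-II is a human pancreatic ductal adenocarcinoma line. Cells carrying Cas9 with an empty vector (Control), cells edited at HNF4G (HNF4G-KO), cells with a lentiviral FOXA1 construct (FOXA1-OE) and edited cells with that construct (HNF4G-KO + FOXA1-OE) had been injected into the pancreas of immunodeficient NSG mice. The edited cells were a pool of clones with heterozygous frameshift mutations. RNA came from 3 Control, 4 HNF4G-KO, 3 FOXA1-OE and 5 HNF4G-KO + FOXA1-OE primary tumors in 14 mice, and from 2 HNF4G-KO and 4 HNF4G-KO + FOXA1-OE metastases. HNF4G-KO + FOXA1-OE tumors 2 and 3 came from 1 mouse, as did metastases 1 (spleen) and 2 (fat) of that genotype, and each pair was averaged before testing. KPC lines from a mouse pancreatic tumor and from the matched liver metastasis gave 4 libraries each. Values are RPKM, read counts scaled to exon length and library depth, as deposited.

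The labels and libraries limited what could be read from the groups. HNF4G mRNA was at 5.72 to 8.42 RPKM in the tumors labeled HNF4G-KO against 2.48 to 3.47 RPKM in Control tumors, so it was not lower under the label. RPKM over the gene does not read frameshift mutations, which the paper checked by Sanger sequencing, so these values do not test the knockout. The names below are those of the labels. FOXA1 was at 0.52 to 0.93 RPKM in Control tumors and 4.65 to 23.1 RPKM in HNF4G-KO + FOXA1-OE tumors, while 1 tumor labeled FOXA1-OE, number 3, had 0.76 RPKM. Set against primary tumors, FOXA1 mRNA went against the label in 3 of the 4 metastases labeled HNF4G-KO + FOXA1-OE. It was at 0.53, 17.9, 1.30 and 1.55 RPKM in metastases 1 to 4, against 1.26 to 1.87 RPKM in HNF4G-KO tumors. The HNF4G-KO metastases had 0.36 and 0.60 RPKM. The step between low values placed the depth at 33.1 M to 69.6 M reads for HPAF-II and 30.1 M to 44.4 M reads for KPC libraries (M, 1e6 reads), and most low values sat at even steps. FOXA1-OE tumor 3 and HNF4G-KO + FOXA1-OE tumor 5 stood apart in an index of long against short genes, which compares genes with over 6000 and under 1500 exonic bases. The index was -0.54 and -0.67 (log2) in these libraries and -0.30 to 0.39 in the other HPAF-II libraries. All 18 genes of an epithelial marker list had means of at least 1 RPKM in every HPAF-II group, with EPCAM at 195 to 549 RPKM. A list of 8 mesenchymal genes summed to 18.4 to 78.8 RPKM, with 3 to 6 genes at such means by group. VIM reached 56.7 RPKM in an HNF4G-KO metastasis, whereas ZEB1 stayed at or below 0.78 RPKM.

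Human members lie on chromosomes 1 (ELF3, 202007945 to 202017183), 4 (KLF3, 38664197 to 38701517), 6 (SPDEF, 34537802 to 34556333), 9 (KLF4, 107484852 to 107490482), 11 (EHF, 34621093 to 34663288) and 13 (ELF1, 40931924 to 41061440, and KLF5, 73054976 to 73077541), in GRCh38 and GENCODE annotation. All are protein-coding genes. The windows of 250 bases before the RefSeq starts (GRCh38.p14) were searched on both strands for TGTTTAC or TATTTAC, a core bound by FOX proteins, and for CAAAGTCCA, an HNF4 element, because FOXA1 and HNF4G were the factors changed. GGAA and CACCC were searched as ETS and KLF cores. The FOX core was in 5.27% of 35116 windows, the HNF4 element in 0.325%, the ETS core in 92.7% and the KLF core in 54.7%. Windows were found for 6 members. The FOX core occurred once before 1 of the 2 EHF starts, at -196 on the strand of the gene, and once before the SPDEF start, at -49 on the opposite strand, counting -1 as the base before the start. The HNF4 element occurred in no member window.

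Stretches around both FOX cores are shown because FOXA1 was the factor added, and both KLF5 windows because KLF5 had the firmest difference between groups. Capitals mark FOX cores in the first pair and ETS and KLF cores on either strand in the KLF5 windows. Each sequence runs 5′ to 3′ towards the start.
EHF, chr11:34632360-34632386, plus strand, outside exons of the gene: ttaacagctcTGTTTACggtgggtttt
SPDEF, chr6:34556362-34556388, minus strand, upstream of the gene: atttgttcagGTAAATAaggaaggatt
KLF5, first start, chr13:73054726-73054975, plus strand, upstream of the gene: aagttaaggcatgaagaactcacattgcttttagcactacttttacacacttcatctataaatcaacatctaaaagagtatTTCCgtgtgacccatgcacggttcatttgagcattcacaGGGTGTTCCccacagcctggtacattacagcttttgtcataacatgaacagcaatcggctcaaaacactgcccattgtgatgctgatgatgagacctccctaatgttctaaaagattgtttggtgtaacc
KLF5, second start, chr13:73058755-73059004, plus strand, intronic: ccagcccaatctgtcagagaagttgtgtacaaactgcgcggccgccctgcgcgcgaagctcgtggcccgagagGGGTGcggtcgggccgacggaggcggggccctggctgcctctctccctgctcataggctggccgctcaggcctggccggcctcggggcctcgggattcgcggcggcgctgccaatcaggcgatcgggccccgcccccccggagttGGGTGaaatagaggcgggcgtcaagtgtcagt

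HNF4G-KO tumors had higher levels of most members than Control tumors, and KLF5 and KLF3 rose. The 7 members together summed to 328 to 340 RPKM in the HNF4G-KO tumors and 175 to 217 RPKM in the Control tumors. By limma on log2(RPKM + 1) with Benjamini-Hochberg adjustment over 14269 genes, 2 of 7 members were called, both higher, against 12.2% of all genes called. The median log2 fold change was 1.06 over the members and 0.01 over all genes tested. In these bulk tumors, fewer cells of a type and less RNA per cell cannot be told apart.

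KLF5 was the most abundant KLF member and had the firmest difference. It was at 49.9, 41.4 and 50.2 RPKM in Control tumors 1 to 3 and at 114, 113, 121 and 111 RPKM in HNF4G-KO tumors 1 to 4. The groups did not overlap, and the HNF4G-KO tumors varied little (115 ± 4.45 RPKM, SD, n = 4). The difference was 2.41-fold (log2 fold change 1.27, SE 0.19, limma adjusted p = 0.0025), and KLF5 was called under each of the 16 alternatives, with adjusted p of at most 0.024.

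KLF3, the repressor, was at 15.01, 11.8 and 12.5 RPKM in Control and 24.3, 25.4, 26.6 and 25.2 RPKM in HNF4G-KO tumors. Again no HNF4G-KO tumor reached down to a Control tumor. The rise was 1.88-fold (log2 fold change 0.91, SE 0.25, limma adjusted p = 0.033). This call was lost whenever 1 mouse of either group was left out, with adjusted p from 0.052 to 0.13.

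KLF4 was at 15.6, 11.5 and 12.1 RPKM in Control and 27.9, 28.9, 30.1 and 33.6 RPKM in HNF4G-KO tumors. The groups did not overlap, and the log2 fold change of 1.15 (SE 0.36) had a limma adjusted p of 0.052. Among the other 24 KLF and SP factors, 13 were tested, and KLF2 and SP1 rose while none fell (median log2 fold change 0.39). Over all genes, 12.2% were called, so this count is close to that share. KLF2, a factor best known from endothelium and quiescent lymphocytes, was at 10.7 to 15.1 RPKM in Control and 25.9 to 29.4 RPKM in HNF4G-KO tumors (limma adjusted p = 0.03). SP1, a widely expressed relative of the KLF factors, went from 18.7 to 22.1 RPKM to 33.1 to 39.5 RPKM (limma adjusted p = 0.0093).

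The ETS members ELF1, EHF and ELF3 had positive differences that did not pass the threshold. ELF1 was at 12.4, 8.85 and 7.02 RPKM in Control and 21.6, 26.9, 26.6 and 24.6 RPKM in HNF4G-KO tumors. Its log2 fold change of 1.34 was the largest of the members, with an SE of 0.53 and a limma adjusted p of 0.11. EHF was at 36.9, 21.4 and 17.7 RPKM in Control and 44.2, 55.8, 50.4 and 55.2 RPKM in HNF4G-KO tumors (log2 fold change 1.06, SE 0.38, limma adjusted p = 0.081). Neither gene overlapped between the groups. ELF3 was at 25.5, 22.2 and 42.3 RPKM in Control and 49.3, 50.7, 41.0 and 49.1 RPKM in HNF4G-KO tumors, and overlapped through Control tumor 3 and HNF4G-KO tumor 3 (log2 fold change 0.70, SE 0.27, limma adjusted p = 0.0995).

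SPDEF, whose known role is in secretory cells, was the one member with a negative difference. It was at 46.9, 57.5 and 75.4 RPKM in Control and 46.9, 38.7, 38.7 and 40.8 RPKM in HNF4G-KO tumors, with the nearest tumors of the groups almost level (log2 fold change -0.50, SE 0.26, limma adjusted p = 0.21). In 5 of 7 members each HNF4G-KO tumor lay above each Control tumor, against 25.1% of the 14269 genes.

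**Figure D1:**
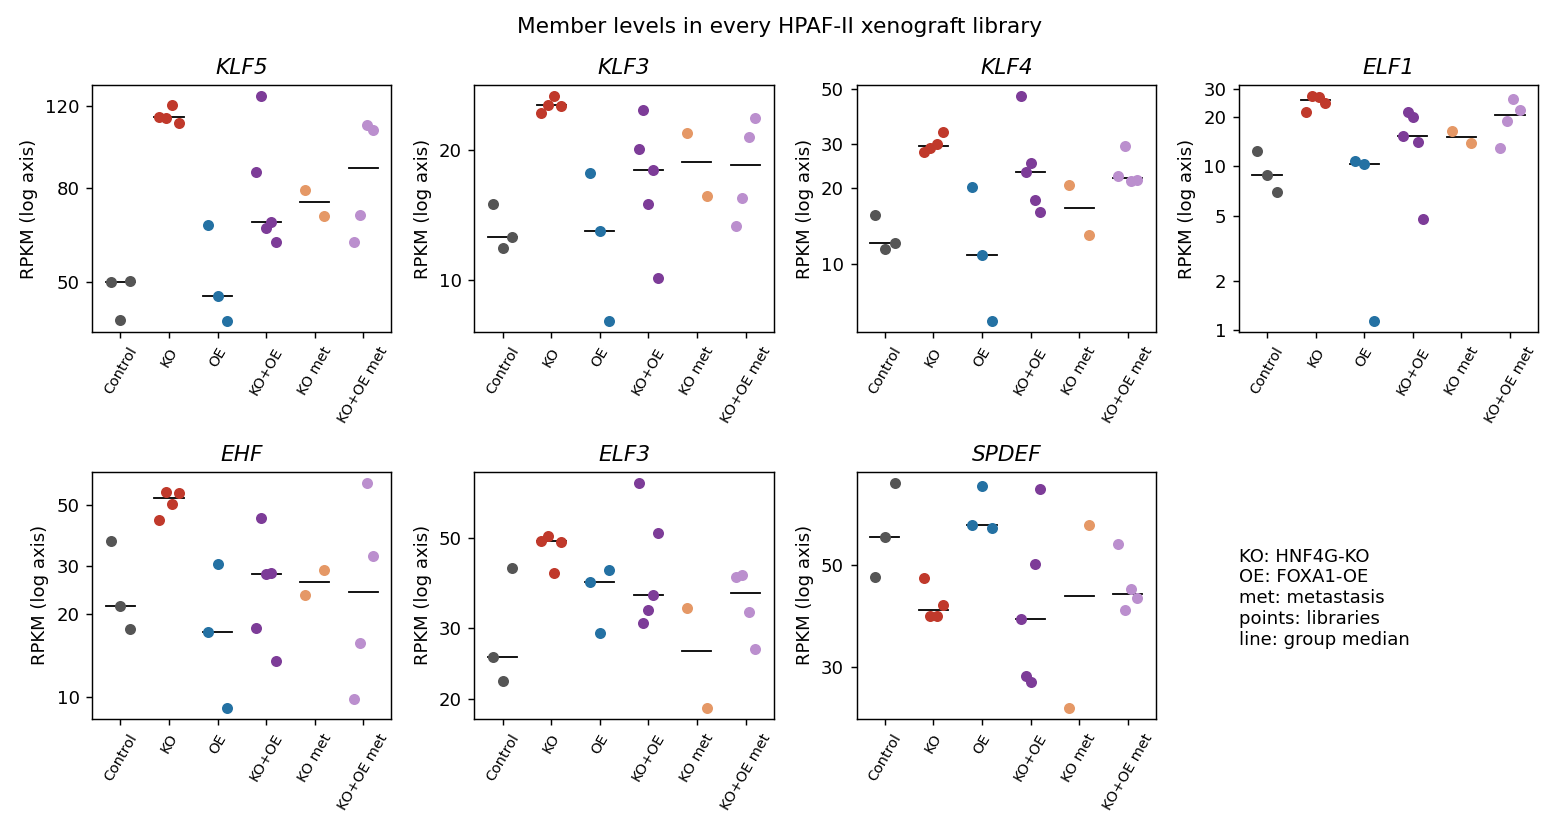
RPKM of each member (log axis, 1 panel a gene) in the 21 HPAF-II libraries, grouped by label (points, libraries; lines, group medians). The 4 HNF4G-KO tumors lie close together and above the Control tumors for KLF5, KLF3, KLF4, ELF1 and EHF, and low for SPDEF, whereas the HNF4G-KO + FOXA1-OE tumors are spread widely.

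The number of members called in this comparison rested on the estimate of spread. With only Control and HNF4G-KO tumors in the fit, 7 of 7 members were called, but so were 5595 of 14088 genes, and without FOXA1-OE tumor 3 and HNF4G-KO + FOXA1-OE tumor 5 in the fit 5 members were called, with 4488 of 14099 genes. The fold changes kept their direction for all 7 members under the 16 alternatives.

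The member levels also moved with the index of long against short genes. The index was 0.25 to 0.39 in HNF4G-KO tumors and -0.30 to -0.02 in Control tumors, so it separated the groups as well. Over the 14 mice with primary tumors the Pearson correlation with the index was 0.90 for EHF, 0.89 for ELF1, 0.88 for KLF3, 0.76 for KLF5, 0.69 for KLF4, 0.14 for ELF3 and -0.70 for SPDEF. Without the 2 libraries farthest from the median index it was 0.85 for EHF, 0.89 for ELF1, 0.81 for KLF3, 0.82 for KLF5, 0.65 for KLF4, 0.46 for ELF3 and -0.64 for SPDEF. The points share the libraries from which both measures were taken. EHF, KLF3 and ELF3 (6617, 6771 and 7186 exonic bases) are themselves in the long class of the index. With the trend on exon length removed from each library, KLF5, KLF3 and KLF4 were called, with log2 fold changes of 1.26, 0.76 and 1.14 (limma adjusted p from 0.0014 to 0.035). ELF1, EHF, ELF3 and SPDEF were not called, with log2 fold changes of 1.29, 0.92, 0.54 and -0.31.

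**Figure D2:**
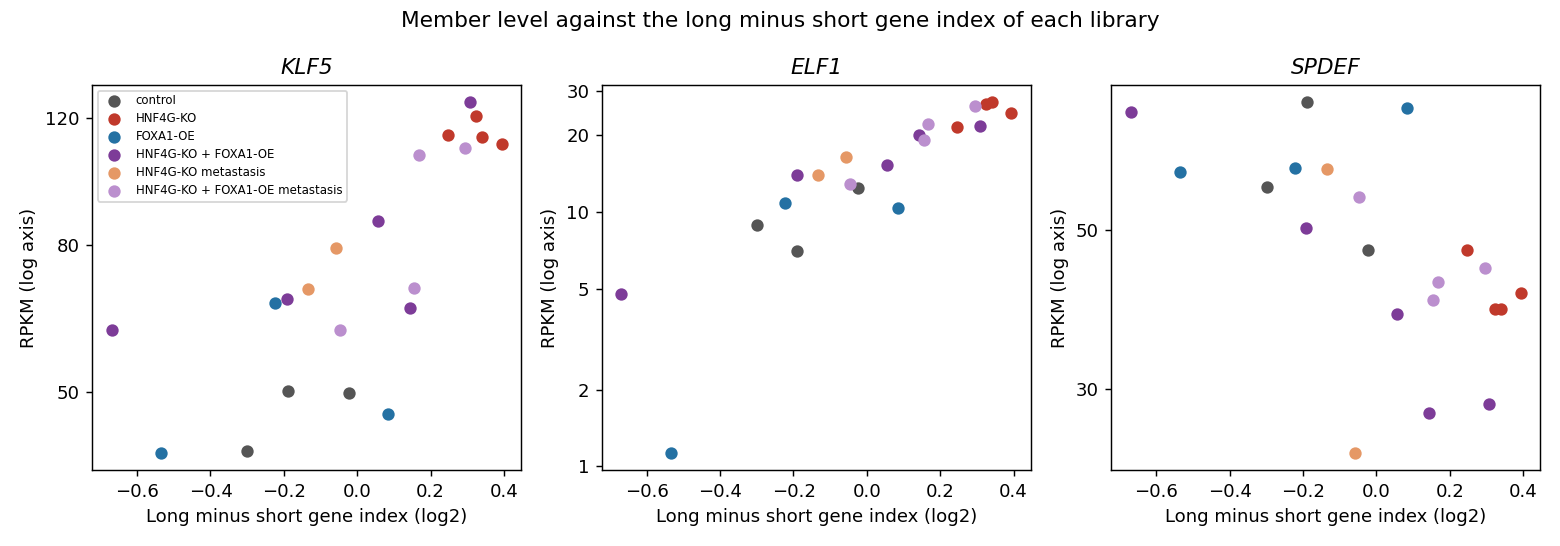
RPKM of KLF5, ELF1 and SPDEF (log axes) against the index of long minus short genes (log2) in the 21 HPAF-II libraries, colored by group. ELF1 is lowest, at 1.13 and 4.76 RPKM, in the 2 libraries with the lowest index.

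Sums of host tissue genes varied between libraries, and the ranges of the stromal, pancreatic, endothelial and fat lists overlapped between these groups. The sums of 8 myeloid and blood genes did not overlap, at 3.15 to 5.30 RPKM in Control and 1.90 to 2.31 RPKM in HNF4G-KO tumors. Only 1 gene of that list was tested. Summed RPKM of 8 stromal genes was 58.7 to 196 (median 191) in Control and 50.8 to 72.6 (median 61.2) in HNF4G-KO tumors. For 6 genes of pancreatic enzymes the sum was 3.0 to 337 (median 3.99) in Control and 0.1 to 7.8 (median 3.42) in HNF4G-KO tumors. Over all HPAF-II groups the sums reached up to 0.93 RPKM for the endothelial list, 10.9 for the myeloid and blood list and 54.6 for the fat list, mostly CIDEC. None of the genes tested from these 5 lists was called, and with the stromal list as a covariate 5 members were called (KLF5, KLF3, KLF4, ELF1 and EHF). Their part in the other differences was not tested.

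Programs that the members are known for were read from fixed lists. Of 13 goblet and secretory genes tested, 4 rose in HNF4G-KO tumors and none fell, with a median log2 fold change of 0.30. Over all genes, 12.2% were called in this comparison. TFF1, a trefoil peptide of mucus, was at 51.2 to 88.9 RPKM in Control and 336 to 663 RPKM in HNF4G-KO tumors (limma adjusted p = 0.025). AGR3 and AGR2, disulfide isomerase relatives of the secretory pathway, rose 4.85-fold and 1.68-fold, and CREB3L1, a membrane-bound factor of secretory capacity, rose 3.05-fold. Of 18 epithelial genes, OVOL1 and GRHL3, regulators of epidermal differentiation, rose 2.27-fold and 2.25-fold and none fell (median 0.21). That share called was near the share over all genes. Of 4 mesenchymal genes tested, VIM, the intermediate filament of mesenchymal cells, fell by 1.36 on the log2 scale. The median sum of stromal genes was lower too, 61.2 against 191 RPKM, with overlapping ranges. The part of host cells in the VIM difference was not tested.

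Among 16 other ETS factors tested, 2 fell in HNF4G-KO tumors and none rose (median log2 fold change -0.0034). The share called was near the 12.2% of all genes. SPI1, a factor of blood lineages, had 2.76 to 5.45 RPKM in Control and 0.70 to 1.87 RPKM in HNF4G-KO tumors. The host myeloid and blood sums were lower in HNF4G-KO tumors as well, and the part of host cells in the SPI1 difference was not tested. ETV5, a target of growth factor signaling, had 5.32 to 7.80 RPKM in Control and 2.85 to 3.87 RPKM in HNF4G-KO tumors. WWP1, a ubiquitin ligase that acts on KLF5, rose 1.88-fold (limma adjusted p = 0.043), and the other 3 genes of KLF5 turnover were not called. None of the 3 KLF3 corepressor genes CTBP1, CTBP2 and FHL3 was called (median -0.47).

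FOXA1-OE tumors did not differ detectably from Control tumors in any member. KLF5 was at 66.4, 46.6 and 41.2 RPKM, EHF at 17.2, 30.4 and 9.14 RPKM, and SPDEF at 61.0, 74.1 and 60.3 RPKM in tumors 1 to 3. Tumor 3, in which FOXA1 was at the Control level, was also the lowest for KLF3 (8.02 RPKM), KLF4 (5.91 RPKM) and ELF1 (1.13 RPKM). All 7 members overlapped with Control. Limma called 0 members and 0% of all genes, and at an unadjusted p under 0.05 there were 0 members and 652 genes. The members' log2 fold changes ran from -0.63 to 0.32, with adjusted p of 0.84 or more.

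In HNF4G-KO + FOXA1-OE tumors the members were spread widely, with some values outside the ranges of both Control and HNF4G-KO tumors. Tumor 1 was above every HNF4G-KO tumor for KLF4 and ELF3, and tumor 5 was below every Control tumor for ELF1, EHF and KLF3. KLF5 was at 86.5, 126, 65.5, 67.3 and 61.0 RPKM in tumors 1 to 5, and KLF4 at 46.6, 23.2, 25.1, 17.9 and 16.1 RPKM. Every one of these tumors was above every Control tumor for KLF5 and KLF4, as for 4.88% of all genes. ELF1 was at 15.3, 21.7, 20.1, 14.0 and 4.76 RPKM, KLF3 at 20.04, 24.7, 14.98, 17.9 and 10.1 RPKM, and EHF at 17.8, 44.8, 28.0, 28.2 and 13.5 RPKM. Tumor 5, with the lowest index, had the lowest value of all 5 members just given, and the highest SPDEF (73.0 RPKM, against 38.1, 28.6, 27.8 and 50.3 RPKM in tumors 1 to 4). ELF3 was at 68.6, 30.9, 33.2, 36.2 and 51.4 RPKM and overlapped with every other tumor group.

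Compared with HNF4G-KO tumors, no member was called, against 0.0561% of all genes, and 3 members and 2894 of 14269 genes had an unadjusted p under 0.05. EHF was 2.25-fold lower (log2 fold change -1.17, SE 0.35, limma adjusted p = 0.20), KLF5 1.51-fold lower (-0.60, SE 0.18, adjusted p = 0.20) and KLF3 1.52-fold lower (-0.61, SE 0.23, adjusted p = 0.21). ELF1 differed by -0.96 (SE 0.49) and KLF4 by -0.32 (SE 0.33). No member had every such tumor below every HNF4G-KO tumor, as 8.37% of all genes did. For KLF5, KLF3, ELF1 and EHF it was tumor 2 alone, averaged with tumor 3 of the same mouse in the test, that reached the HNF4G-KO values. EHF was called with the stromal list as a covariate (log2 fold change -1.29), and without tumor 5 its difference was -0.94.

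Compared with Control tumors, 0 of 7 members were called by limma, against 4.70% of all genes, and 3 members and 2741 of 14269 genes had an unadjusted p under 0.05. KLF5 was 1.59-fold higher (log2 fold change 0.67, SE 0.19, limma adjusted p = 0.063), KLF4 1.79-fold (SE 0.36, adjusted p = 0.22) and ELF3 1.54-fold (SE 0.27, adjusted p = 0.22). KLF5 passed the threshold without tumor 5 (log2 fold change 0.77), and KLF5, KLF3 and ELF1 passed it without both libraries of low index. Compared with FOXA1-OE tumors, limma again called 0 members, against 7.86% of all genes, and 2 members and 3374 of 14269 genes had an unadjusted p under 0.05. KLF4 was 2.07-fold higher (SE 0.36, limma adjusted p = 0.093), KLF5 1.49-fold (SE 0.19, adjusted p = 0.086), and SPDEF differed by -0.53 on the log2 scale (adjusted p = 0.24).

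Relatives of the members passed in those comparisons, in which 4.70% (against Control) and 7.86% (against FOXA1-OE) of all genes were called. Against Control tumors, SP6 rose 1.69-fold and ETV5 was 2.15-fold lower among the other KLF, SP and ETS factors. Against FOXA1-OE tumors, KLF2, KLF6 and SP6 rose 2.79-fold, 2.21-fold and 1.80-fold, and ETV5, ETV1 and ETV6 fell and were 2.89-fold, 2.15-fold and 1.45-fold lower. ETV1 and ETV5 belong to the PEA3 subgroup of ETS factors. CREB3L1 rose and VIM fell in both comparisons, and GRHL3 rose against FOXA1-OE tumors. No gene of these lists was called against HNF4G-KO tumors.

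Whether FOXA1-OE acted differently with and without HNF4G-KO was tested as an interaction. All 7 estimates were negative, from -0.70 for KLF5 (SE 0.27) to -0.02 for SPDEF (SE 0.37). The median over all genes was -0.05, and 3 of the 7 (EHF, KLF3 and KLF5) kept their sign under every alternative. Limma called 0 members, against 0.0350% of all genes, and KLF5 alone of the members, with 1209 of 14269 genes, had an unadjusted p under 0.05 (adjusted p = 0.49).

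**Figure D3:**
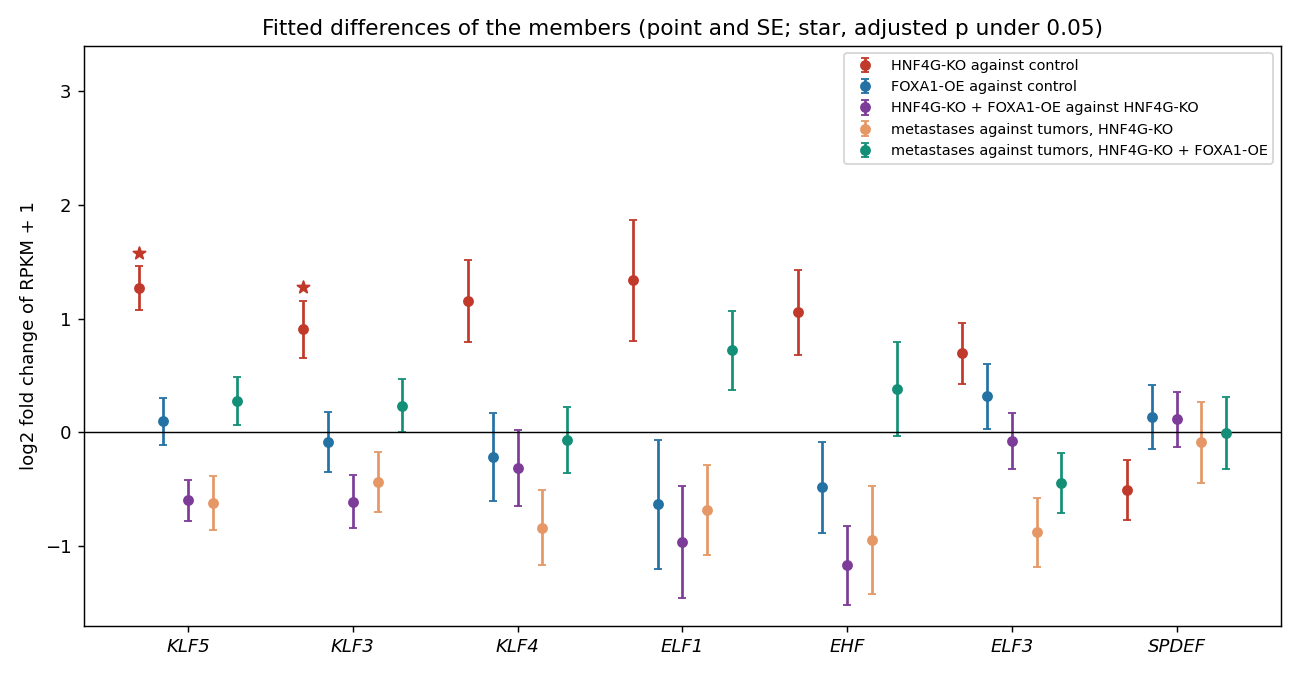
Fitted log2 fold changes of RPKM + 1 for the 7 members in 5 comparisons (points, estimates; bars, SE; stars, adjusted p under 0.05). Only KLF5 and KLF3 in HNF4G-KO against Control carry a star. The estimates against HNF4G-KO tumors and for HNF4G-KO metastases are mostly below 0.

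HNF4G-KO metastases had lower levels of 6 members than HNF4G-KO tumors, and no member was called. KLF5 was at 79.2 and 69.5 RPKM in the 2 peritoneal metastases, EHF at 23.4 and 28.9 RPKM, KLF4 at 20.5 and 13.01 RPKM, and ELF3 at 33.5 and 19.0 RPKM. ELF1 was at 16.4 and 14.0 RPKM and KLF3 at 21.8 and 15.6 RPKM. Both metastases were below all 4 tumors for these 6 members, as for 21.0% of all genes, and SPDEF lay on both sides of the tumors (24.4 and 60.9 RPKM). The log2 fold changes were -0.88 for ELF3 (SE 0.30, limma adjusted p = 0.27), -0.95 for EHF (SE 0.47, adjusted p = 0.40), -0.84 for KLF4 (SE 0.33, adjusted p = 0.31) and -0.62 for KLF5 (SE 0.24, adjusted p = 0.30). Limma called 0 of 7 members, against 0.0426% of all genes, and 3 members and 1896 of 14099 genes had an unadjusted p under 0.05. Metastasis 2 also had the highest sum of stromal genes, 413 RPKM against 76.5 RPKM in metastasis 1, and with the stromal list as a covariate the differences were -0.24 for ELF3, -0.36 for KLF4 and -1.65 for EHF, none called. Without the mouse of tumor 4 and metastasis 2 they were -0.47 for ELF3 and -0.48 for KLF4. The index was -0.06 and -0.13 in these metastases, below all 4 tumors of the genotype.

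Metastases labeled HNF4G-KO + FOXA1-OE, of which only number 2 had FOXA1 at the level of the tumors of that label, did not differ detectably from those tumors in any member. KLF5 was at 61.0, 69.8, 109 and 107 RPKM in metastases 1 to 4, EHF at 9.80, 15.8, 60.1 and 32.6 RPKM, and ELF1 at 12.9, 19.1, 26.003 and 22.2 RPKM. The pair from the same mouse, in spleen and fat, had the lowest values of all 3 genes. KLF3 was at 13.3, 15.5, 21.4 and 23.6 RPKM, KLF4 at 22.3, 29.5, 21.3 and 21.7 RPKM, ELF3 at 40.2, 40.6, 32.8 and 26.6 RPKM, and SPDEF at 55.6, 39.9, 44.2 and 42.2 RPKM. All 7 members overlapped with the tumors of the genotype. Limma called 0 members, against 0.00709% of all genes, and 0 members and 1356 of 14099 genes had an unadjusted p under 0.05. ELF1 had the largest difference (log2 fold change 0.72, SE 0.35, adjusted p = 0.52), and ELF3 differed by -0.44 (SE 0.27, adjusted p = 0.56).

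The metastasis effect itself was compared between the genotypes, a comparison added after the data were seen. The genotypes are those of the labels, and FOXA1 was low in 3 of the 4 metastases labeled HNF4G-KO + FOXA1-OE. All 7 estimates for HNF4G-KO + FOXA1-OE minus HNF4G-KO were positive, the largest 1.41 for ELF1 (SE 0.53, limma adjusted p = 0.27) and 0.89 for KLF5 (SE 0.32, adjusted p = 0.27). The median over all genes was 0.14. Limma called 0 members and 0% of 14099 genes, and at an unadjusted p under 0.05 there were 2 members and 2267 genes.

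Metastases could be set beside a tumor of the same mouse in 5 cases. In mice with HNF4G-KO tumors, metastasis 1 was below its tumor for 7 of 7 members and metastasis 2 for 6 of 7, with median differences of -0.58 and -0.77 on the log2 scale. In the mouse with both a spleen and a fat metastasis of the HNF4G-KO + FOXA1-OE genotype, 6 and 5 of 7 members were lower. In the mouse with metastasis 4, 5 of 7 were higher. The share of all genes that was lower in each pair was not computed, so these counts do not set the members apart from other genes. ELF3 was lower than in the matched tumor in all 5 metastases, by 0.43 to 1.32 on the log2 scale. These are not separate cases, since the spleen and fat metastases share a mouse and its tumor 1, where ELF3 was at 68.6 RPKM.

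**Figure D4:**
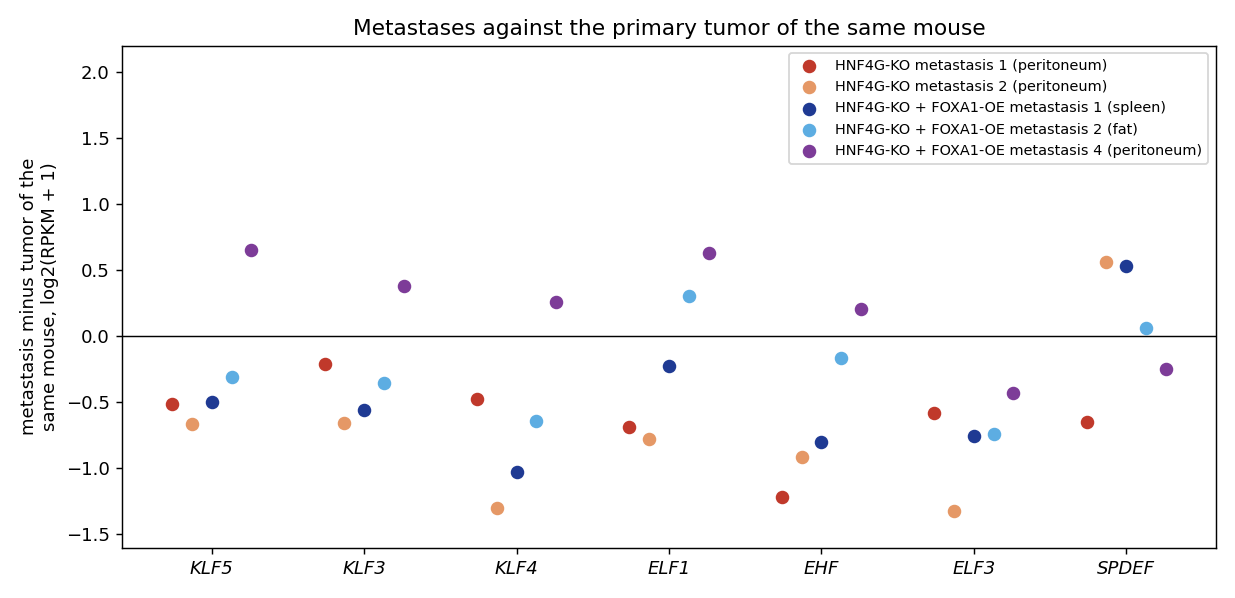
Difference in log2(RPKM + 1) between each metastasis and the primary tumor of the same mouse, for the 7 members (points, metastases, colored by genotype and site). ELF3 is below 0 in all 5, from -1.32 to -0.43, and SPDEF falls on both sides. The spleen and fat metastases are from the same mouse and are set against the same tumor.

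Across the 14 mice with primary tumors, 5 members varied together. Pearson correlations of log2(RPKM + 1) among KLF3, KLF4, KLF5, ELF1 and EHF ran from 0.59 (EHF with KLF4) to 0.95 (ELF1 with KLF3). SPDEF correlated negatively with each of them, from -0.60 (EHF) to -0.72 (KLF3 and KLF5). ELF3 followed KLF5 (0.57) and KLF4 (0.56) and was unrelated to EHF (-0.05). These correlations are over libraries that share groups and the index, and are given as a description.

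The genes most like each member in these mice were listed by the same measure. For KLF5 they were PALS1, WASL and PTBP3 (r from 0.95 to 0.96), for KLF3 GCC2, SOCS6 and DYRK2 (0.98), and for KLF4 OVOL1, SDCBP and SLC20A2 (0.95 to 0.97). OVOL1 was at 2.90 to 3.59 RPKM in Control and 7.94 to 8.94 RPKM in HNF4G-KO tumors. For ELF1 they were BLTP3B, YES1 and KLHL20 (0.99), and for EHF ENSG00000229970, FBXO11 and CASP8AP2 (0.98). For ELF3 they were P2RX4, RNF121 and SDR16C5 (0.92 to 0.98), and for SPDEF TEDC2, ABHD8 and MAPK8IP3 (0.94 to 0.95).

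Levels per length ordered the members in Control tumors as SPDEF (59.9 ± 14.4 RPKM), KLF5 (47.2 ± 4.97), ELF3 (29.99 ± 10.8), EHF (25.3 ± 10.2), KLF4 (13.1 ± 2.21), KLF3 (13.1 ± 1.66) and ELF1 (9.44 ± 2.76; SD, n = 3). Neighbors in this order overlapped between libraries, except EHF and KLF4. In HNF4G-KO tumors KLF5 came first (115 ± 4.45), followed by EHF (51.4 ± 5.40), ELF3 (47.5 ± 4.39), SPDEF (41.3 ± 3.86), KLF4 (30.1 ± 2.47), KLF3 (25.4 ± 0.96) and ELF1 (24.9 ± 2.48; SD, n = 4). There KLF5 did not overlap with EHF, SPDEF with KLF4, or KLF4 with KLF3, and the other neighbors did.

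In the KPC lines Ehf split the libraries by line and by replicate together. It was at 4.96, 4.82, 24.2 and 25.8 RPKM in tumor line replicates 1 to 4 and at 26.2, 30.4, 4.77 and 4.51 RPKM in liver metastasis line replicates 1 to 4. The metastasis line was 4.96-fold higher in replicates 1 and 2, and the tumor line 4.61-fold higher in replicates 3 and 4. The whole table behaved the same way: of 312 genes that differed at least 2-fold between the lines in both pairs, 311 had opposite directions and 1 the same. Which line carries the higher Ehf therefore cannot be told from these labels.

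Elf1 followed Ehf at a smaller size, with 7.26, 7.56, 8.99 and 8.51 RPKM in the tumor line and 9.67, 9.25, 7.37 and 7.39 RPKM in the metastasis line. Elf3, at 42.4, 36.6, 20.3 and 30.9 RPKM in the tumor line and 39.9, 40.1, 33.2 and 39.7 RPKM in the metastasis line, was lowest in tumor line replicates 3 and 4. Klf4, at 31.1, 27.9, 15.03 and 18.4 RPKM and 29.6, 20.9, 23.6 and 25.4 RPKM, was lowest in the same libraries. Klf5 stayed at 31.0 to 37.4 RPKM and Klf3 at 19.7 to 22.8 RPKM in all 8 libraries. Spdef was at or below 0.68 RPKM and did not pass the filter, and 6 of 7 orthologs did.

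Over all 8 libraries, limma called 0% of 12585 genes, with 109 genes at an unadjusted p under 0.05. With replicates 1 and 2 alone 25.5% of genes were called, and with replicates 3 and 4 alone 0.635%. Nothing is read from these shares about the orthologs, since the split of Ehf chose them. Pkia, Ralgps2 and Syk were the genes most like Ehf over the 8 libraries (Pearson r of 0.996 to 0.998). Syk, a tyrosine kinase of immune receptors and epithelia, was at 0.37 to 2.01 RPKM in the tumor line and 0.26 to 2.14 RPKM in the metastasis line.

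**Figure D5:**
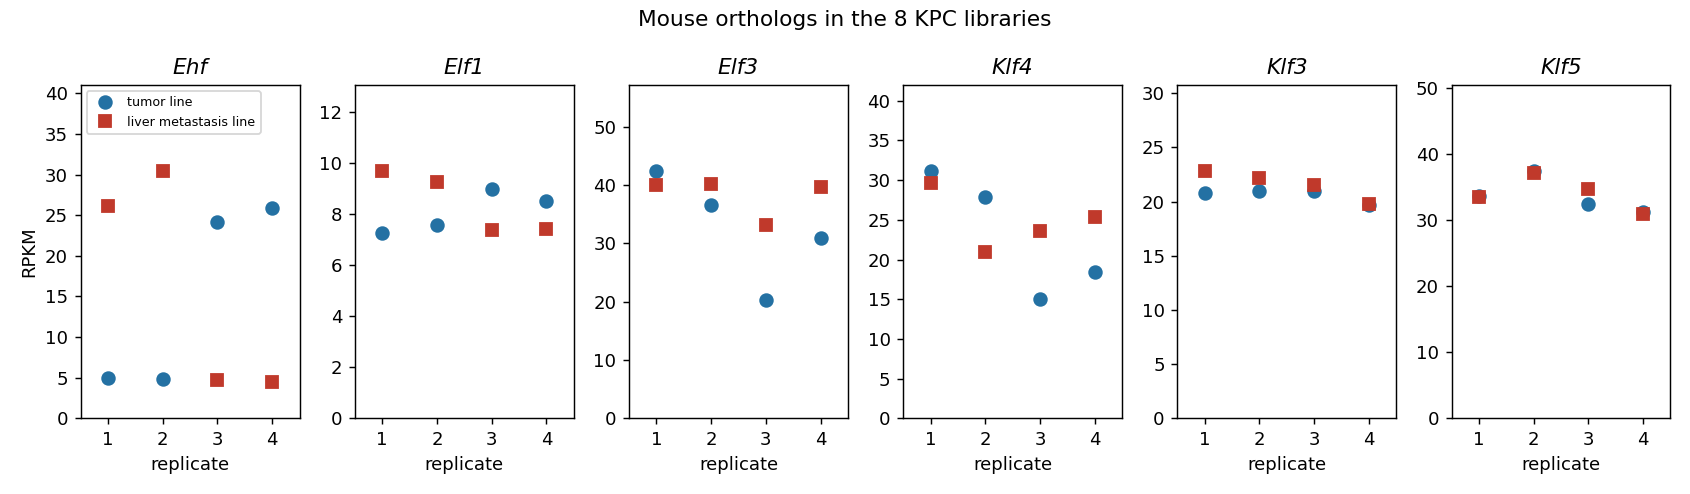
RPKM of the 6 orthologs that passed the filter in each KPC library by replicate number (circles, tumor line; squares, liver metastasis line). Ehf is near 5 RPKM in tumor line replicates 1 and 2 and metastasis line replicates 3 and 4, and at 24.2 to 30.4 RPKM in the other 4 libraries.

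The KPC lines held the ETS and KLF orthologs in cells with mixed markers. Of 18 epithelial orthologs, 11 in the tumor line and 10 in the metastasis line had means of at least 1 RPKM. Krt8, Krt18 and Krt19 were at 705 to 1421, 1048.5 to 1943 and 421 to 997 RPKM. Cdh1, the epithelial cadherin, was at 147.5 to 332 RPKM, but Epcam was at 1.30 to 7.05 RPKM and Grhl2 at or below 0.04 RPKM, while Vim was at 527 to 790 RPKM. In HPAF-II tumors VIM was at 9.40 to 42.1 RPKM.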

How the data were processed

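RNA was sequenced from 21 HPAF-II xenograft libraries and 8 KPC libraries. The authors deposited RPKM values per gene. Per the labels, reads were aligned with STAR 2.6.1a, counted with featureCounts 2.0.4 and passed to DESeq2, and the human build is hg38, whereas the study's methods name GRCh37. RPKM corrects for depth and exon length but not for RNA composition, so a few abundant genes can shift the other values. Depth was read from the steps between low values, with 99.8% to 99.9% of HPAF-II values under 30 reads whole within 0.1 reads.

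Genes averaging at least 1 RPKM over the fitted samples were tested by limma 3.58.1 in R 4.3.3 (moderated test with a mean trend, two-sided) on log2(RPKM + 1), which understates changes of low genes. All primary tumor groups shared 1 fit, and a separate fit held metastases and the tumors of both genotypes that had them. Tumors of the same mouse were averaged. P-values were adjusted by Benjamini-Hochberg over all genes tested, with a threshold of 0.05. Nothing says that the KPC libraries came from separate cultures, so their spread may be technical. No libraries were duplicates. Gene identifiers were matched to GENCODE ignoring versions (58250 of 58719 human and 54409 of 54446 mouse). The code was tested on simulated data. The 12 columns that match no sample here were not used.

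The members and gene lists were chosen with earlier results of these data known. All members are named, and for each list up to 4 called genes by size of change, and for each member the 3 genes of highest correlation. Members' KPC values carry no test, since that contrast chose them. The alternatives were another pseudocount, no filter, equal medians, stromal genes as a covariate, unaveraged tumors, a block on the mouse or on the replicate number, only the groups compared, leaving out each mouse, and 2 alternatives chosen after seeing the data, an exon length correction and a fit without the 2 libraries of low index.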

Additional observations from a re-analysis of the deposited data

Results flagged for a closer look

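In 4 of 35 groups of 4 or 5 libraries, 1 library lay far from the others by Dixon's gap test, which chance alone gives in about 1 in 20 groups. ELF3 was at 41.0 RPKM in HNF4G-KO tumor 3, with the nearest tumor at 49.1 RPKM. KLF4 was at 29.5 RPKM in HNF4G-KO + FOXA1-OE metastasis 2, with the nearest metastasis at 22.3 RPKM. In the KPC lines, Elf3 was at 33.2 RPKM in liver metastasis line replicate 3, with the nearest at 39.7 RPKM, and Klf3 was at 19.7 RPKM in tumor line replicate 4, with the nearest at 20.8 RPKM.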

How the results depend on the processing

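Over the alternatives, 43 of 63 member estimates kept their sign, including all 7 for HNF4G-KO against Control and 0 of 7 for FOXA1-OE against Control. For HNF4G-KO against Control the members called went from 2 to 1 without the filter, 5 with the stromal covariate, 7 with only the groups compared, 5 without FOXA1-OE tumor 3 and HNF4G-KO + FOXA1-OE tumor 5, and 1 to 1 with any 1 mouse left out. For HNF4G-KO + FOXA1-OE, 1 member was called against HNF4G-KO with the stromal covariate. Against Control, 1 was called with equal medians, 1 with the exon length trend removed, 3 without the 2 libraries of low index, and 0 to 1 with 1 mouse left out (KLF5 without tumor 5). Against FOXA1-OE, 2 were called with the exon length trend removed and 0 to 2 with 1 mouse left out (KLF4 and KLF5 without FOXA1-OE tumor 1, KLF5 and SPDEF without HNF4G-KO + FOXA1-OE tumor 5). In KPC, 2 orthologs passed the threshold with replicates 1 and 2 alone and 1 with replicates 3 and 4 alone, which is no test, since the split of Ehf between these replicates chose the members. The cause of these changes was not tested. Counts over all genes moved by over 1.5 times for HNF4G-KO against Control, from 1736 to 3708 (stromal covariate), 5595 (only the groups compared), 4488 (without the low-index libraries) and 284 to 1165 (1 mouse left out, lowest without Control tumor 2). They moved from 670 to 25 and 1254 for HNF4G-KO + FOXA1-OE against Control, and from 1122 to 86 and 1313 against FOXA1-OE, for only the groups compared and without the low-index libraries. Same-numbered samples correlated at -0.526 to 0.497 among tumors (7 of 19 pairs over 0.1) and -0.412 to 0.209 in KPC, so the numbers do not pair the samples. With the replicate number as a block, limma called 3 members for HNF4G-KO against Control and 0 in KPC, where 212 genes had an unadjusted p under 0.05, and 344 genes for HNF4G-KO + FOXA1-OE against Control.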
